A study of Oncorhynchus mykiss with 28 samples.

Results

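The 150 brightest cDNA clones of the rainbow trout (Oncorhynchus mykiss) egg array were studied here. They were the clones with the highest mean log2 signal over the 4 females that ovulated naturally. They were taken from 7865 clones that had a value above 0 in all 28 females and were not among those listed by the study as changed with ovulation or egg quality. The whole array table held 9023 clone rows, so the 150 clones made up 1.66% of it. The clones were thus chosen by their measured signal in eggs of naturally ovulated females, and all values of that group are given as a description, without any test.

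Unfertilized eggs came from an autumn-spawning strain, and each array held RNA pooled from many eggs of a single female. In the natural ovulation group (N, 4 females, 2003) no treatment was given to time ovulation. In the hormonal induction group (HI, 10 females, 2004) ovulation was triggered by an intraperitoneal injection of a GnRH analog under natural daylight. In the photoperiod manipulation group (PM, 14 females, 2003) ovulation was advanced by an artificial light regime, applied after a first reproduction. HI eggs were collected in another year than PM and N eggs, and for each comparison that involves the HI group the effect of year and that of the injection cannot be told apart. HI and PM females also differed by the light regime, so between these groups its effect cannot be told apart from those of year and injection. Egg quality was the percentage of eggs that gave normal alevins at yolk-sac resorption. It ran from 95.9 to 98.8% in the N group, from 2 to 95.4% in the HI group and from 0 to 93.8% in the PM group. The labels give an identical female number to N replicate 1 and to PM replicate 4, and an exchange of these samples was not tested. Each array was treated as a different female, and the tests set a difference or slope against the spread between females within the groups tested.

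A fish egg is loaded during oogenesis with messenger RNAs made by the mother. These maternal transcripts direct the first cell divisions, before the genome of the embryo is switched on, and their amount in the unfertilized egg reflects both synthesis during oocyte growth and storage or decay during maturation. Abundant stored transcripts of fish eggs commonly include those for ribosomal proteins, mitochondrial proteins, cyclins and egg envelope proteins. None of the 150 clones was paired with a gene in the sources used here, so they are given by clone name, and neither their function nor their sequence is stated. Marker genes of the egg, of follicle cells or of blood could not be looked up for the same reason.

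The deposited signal is radioactive label per spot, corrected for spotted DNA and then set relative to the median of its array, so that a log2 signal of 0 marks the array median. A bright spot can hold a long insert or bind several related transcripts, so the ranking is by hybridisation signal and not by number of mRNA molecules. The mean log2 signal in N eggs fell from 6.91 for the first clone, which is 120.3 times the array median, to 4.57 for the clone ranked 25 and 2.80 for the clone ranked 150. The median over the 150 clones was 3.36 (10.3 times the array median). The curve was steeper over the first 25 clones than over the other 125, and these 25 and 125 clones are described separately below.

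**Figure D1:**
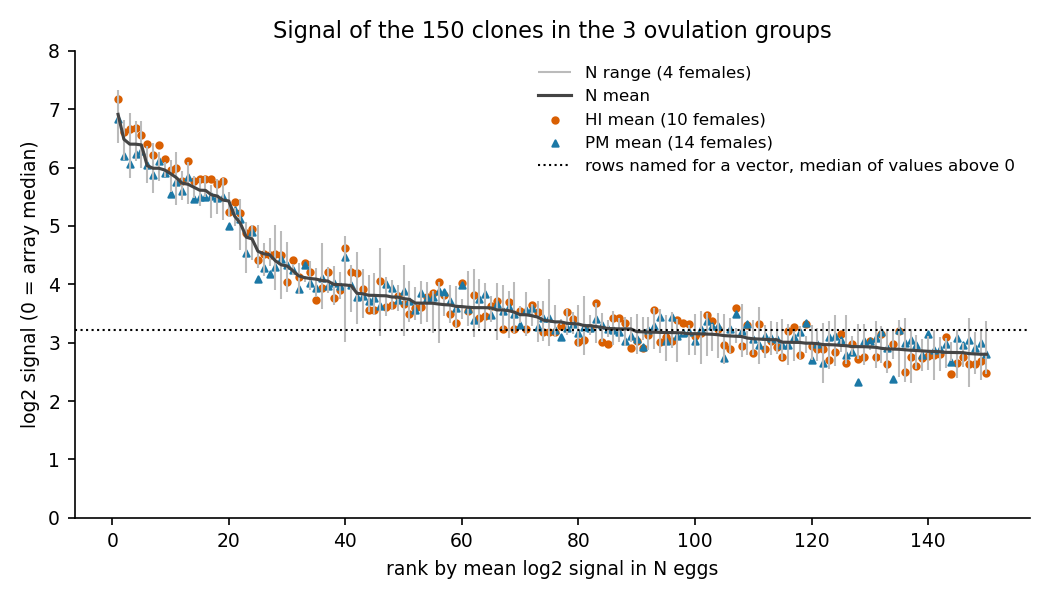
Log2 signal (0 is the array median) of the 150 clones against their rank in N eggs, with the N mean as a line, the range of the 4 N females as grey bars, the HI mean as circles and the PM mean as triangles. Signal dropped from 6.91 to 4.57 over the first 25 clones and to 2.80 at the last, and the dotted line at 3.22 marks the median of the values above 0 of the rows named for a vector.

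The brightest of the clones studied here, by N mean, was tcaa0002.e.03. Its log2 signal was 6.43, 7.02, 6.86 and 7.33 in the 4 N females, it ran from 6.82 to 7.51 (median 7.14) in HI eggs, and from 5.80 to 7.45 (median 6.99) in PM eggs. Compared only with the other clones studied here, it was the brightest in 26 of the 28 females. In the other 2, HI replicates 1 and 7, tcav0001.m.05 was brighter, with log2 signals of 7.28 and 7.06. The N means of the clones ranked 2 to 5 lay close together, at 6.48 for tcaa0002.i.12, 6.40 for tcav0001.m.05, 6.40 for tcaa0002.h.18 and 6.39 for tcai0001.a.01. Their N ranges overlapped, and the order among them is smaller than the spread between females. The next 5 were tcad0006.c.11 (6.03), tcaa0002.h.19 (5.99), tcad0009.n.12 (5.99), 1RT60M18_C_G09 (5.96) and tcab0003.e.20 (5.90), again with overlapping ranges. Among the first 10, the N females differed least for 1RT60M18_C_G09, from 5.84 to 6.10, and most for tcav0001.m.05, from 5.82 to 6.93.

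At the other end, the last clones inside the set were tcad0003.f.12 (N mean 2.802) and tcbk0004.f.17 (2.801), and the first outside were tcbi0009.a.15 (2.796) and 1RT59C24_C_B12 (2.794). These 4 values lie far within the spread of any of them between females. For tcbk0004.f.17 alone the N females ran from 2.47 to 3.37. The lower edge of the set is thus not a step in the data.

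Some rows that name no trout clone gave signal in the same range. Among 128 rows named for a vector, 61.9% of the values were 0, and the 1366 values above 0 ran from 4.13 to 18.6 times the array median, with a median of 9.34 (3.22 on the log2 scale). No such row had a value above 0 on all arrays, which the 150 clones had by the rule. The N mean of 61 of the 150 clones lay below the vector median, and that of 31 clones lay above the highest single vector value. Of 64 water rows, 98.5% of the values were 0, and the others reached at most 3.43, which is below the N mean of all 150 clones. What the vector rows hold beyond their name is not stated, and their relation to the signal of the dimmer clones was not tested.

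The clones were spread unevenly over the series of clone names. Names that start with 1RT gave 75 of the 150 clones, which is 50% of them, and 36.1% of the clones they were drawn from. The tcaa series gave 18 of its 93 clones (19.4%), and 7 of the 25 brightest. The tcad series gave 19 of 441 (4.31%), while tcbk gave 5 of 1756 (0.285%) and tcba 3 of 739. A single plate, tcaa0002, held 13 of the 150 clones among 49. All 6 of the clones in its row h that could be chosen were members, ranked 4 and 7 among others. The names do not say how the series were made. Across all plates, 93 of 328 held at least 1 of the 150 clones.

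The 150 clones carried a similar part of all clone signal in the 3 groups. Their share of the summed signal of an array was 18.7, 20.8, 19.6 and 20.01% in the 4 N females. It ran from 19.1 to 23.0% (median 21.3%) in the 10 HI females and from 15.5 to 21.9% (median 19.3%) in the 14 PM females. The groups overlapped, and the PM females varied most (SD 2.14 percentage points, against 1.24 in HI and 0.902 in N eggs). The 150 clones ranked next, down to rank 300, carried 5.28 to 6.75% of the signal of N females, 5.16 to 6.14% of HI females and 5.72 to 6.80% of PM females. The share of tcaa0002.e.03 alone had a median of 0.884% over the N, 1.01% over the HI and 0.898% over the PM females. These shares depend on how the arrays are scaled. Quantile normalization gives all arrays the same distribution of values, so the share of the brightest clones can differ little between them. After it, the medians of the N, HI and PM groups were 20.1, 19.96 and 19.8%. After scaling all arrays to a common median absolute deviation (MAD), they were 21.1, 23.6 and 17.6%. MAD scaling stretches or shrinks all log2 signals of an array about its median, so clones far from the median move most.

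The share of the 25 brightest clones differed more between females than that of the other 125, with SDs of 1.499 against 0.742 percentage points over the N, 0.912 against 0.666 over the HI and 2.04 against 0.723 over the PM females. For the 25 clones it ran from 8.40 to 11.5% over the N, from 10.3 to 13.02% over the HI and from 6.04 to 11.98% over the PM females. In contrast, the 125 dimmer clones lay between 8.69 and 10.3% in N eggs, between 8.39 and 10.6% in HI eggs and between 8.24 and 11.0% in PM eggs. The lowest shares of the 25 were found in PM replicates 2 (6.84%), 3 (6.04%), 5 (6.86%) and 9 (7.27%), all below the lowest N and HI females. In these 4 females, 20, 21, 21 and 24 of the 25 clones were below their own PM mean, a count that follows in part from having picked these females for a low summed share. Counts below the own group mean were also 23 in HI replicate 1, 21 in HI replicate 5 and 20 in PM replicate 6. The arrays of PM replicates 2, 3, 5 and 9 had interquartile ranges of log2 signal of 1.68, 1.77, 1.76 and 1.58. The PM range was 1.44 to 1.77. After quantile normalization the share of all 150 clones ran from 19.0 to 20.6% over the PM females. That step makes the shares alike by construction, so this range cannot decide on the part of array width. The part of array width in these shares was not tested. Since eggs were pooled, less of a transcript in all eggs and fewer eggs that hold it cannot be told apart. In PM replicates 2, 3 and 5 the 125 dimmer clones were not low, and held 11.0, 9.92 and 9.74%, while in PM replicate 9 they held 8.24%, the lowest share of any female. The normal alevins of these females were 0.5, 3.4, 29 and 43.9%. PM replicates 1 and 4, with 0 and 5% normal alevins, had shares of 9.27 and 11.3%.

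**Figure D2:**
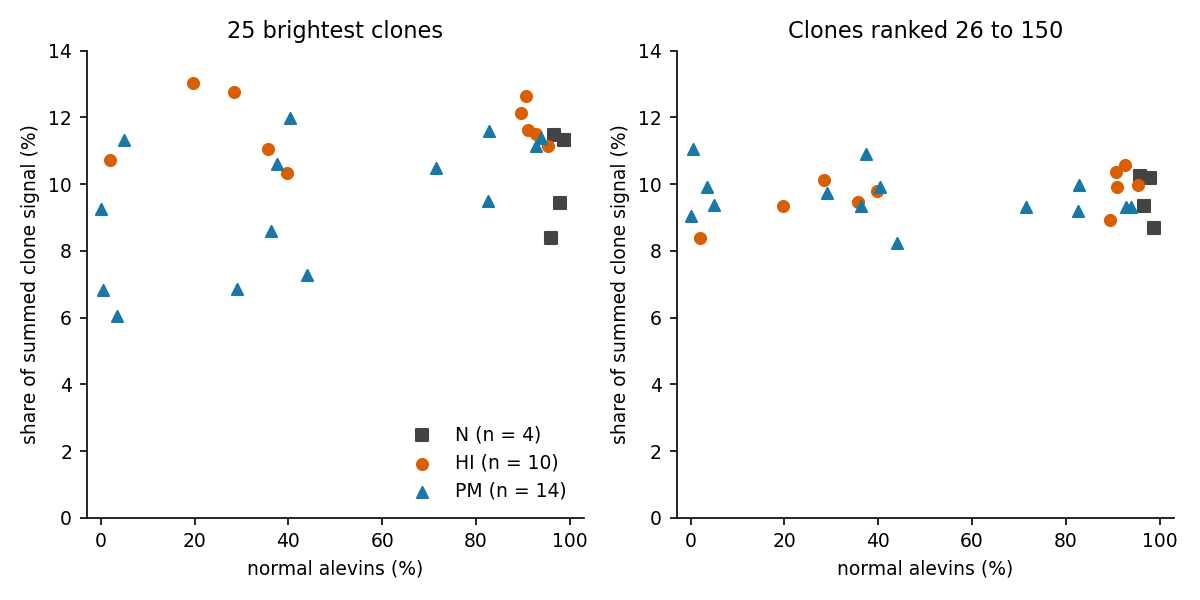
Share of the summed clone signal of an array (%) held by the 25 brightest clones (left) and by the clones ranked 26 to 150 (right), against the percentage of normal alevins, with each point 1 female (N squares, HI circles, PM triangles). The share of the 25 brightest ran from 6.04 to 11.98% among PM females and from 10.3 to 13.02% among HI females, and that of the other 125 clones from 8.24 to 11.0% over all females.

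Membership among the brightest clones was largely kept by the other groups. All ranks in this paragraph were taken among the 7865 clones that could be chosen. Of the 150 clones, 138 were also among the 150 brightest by HI mean and 141 by PM mean, and 71 were among the 150 brightest in each of the 28 females. Per female, 133 to 136 of them were among the 150 brightest of these clones in the N group. The counts were 127 to 135 in the HI group and 119 to 136 in the PM group, the lowest being PM replicate 9. Of the 150 clones, 13 reached the first 150 in fewer than 14 females, the fewest being 6 females for tcbk0004.f.17 and 1RT68A10_C_A05.

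The spread between females was taken in the HI and PM groups, which did not rank the clones. It was computed for each clone as the pooled SD of log2 signal within these groups. Each female had a single array, so differences between eggs and between hybridisations cannot be told apart in this SD. The median SD was 0.31 over the 150 clones, against 0.22 over all 8350 clones tested and 0.24 over the clones ranked next, down to rank 300. The SD of 117 of the 150 clones was above the median of all clones. By rank, the median SD fell from 0.39 over the first 25 clones to 0.32, 0.28, 0.26, 0.26 and 0.24 over the following groups of 25. After quantile normalization the median over the 150 clones was 0.25 and over all clones 0.22, and 99 of the 150 lay above the latter.

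**Figure D3:**
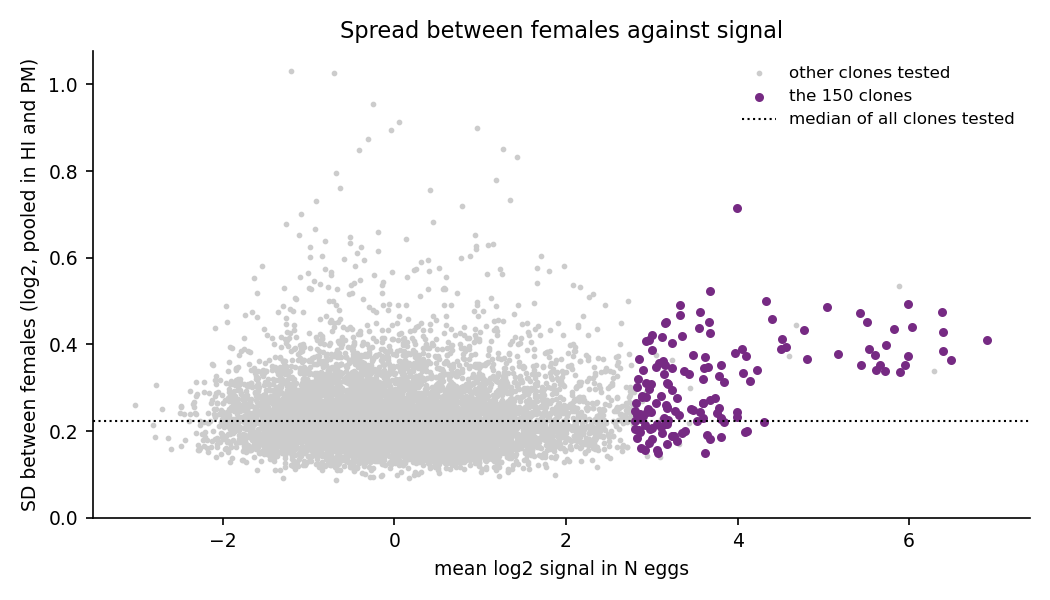
SD of log2 signal between females (pooled within HI and PM) against mean log2 signal in N eggs, for the 150 clones (purple) and the other clones tested (grey). The dotted line is the median of all clones tested (0.22), and 117 of the 150 clones lie above it, with tcay0038.i.18 highest among them at 0.71.

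The most stable clones within the HI and PM groups were all of the dimmer kind. 1RT151L18_D_F09 had an SD of 0.15, and ran from 2.48 to 3.02 (median 2.89) in HI eggs and from 2.84 to 3.26 (median 3.06) in PM eggs. tcad0007.b.07 (SD 0.15) ran from 3.08 to 3.56 and from 3.41 to 3.88. 1RT156K02_C_F01, tcad0003.i.23 and 1RT130F18_D_C09 each had an SD of 0.16. The 4 N females differed more, with SDs of 0.28, 0.38, 0.24, 0.36 and 0.48 for the 5 clones in this order. 1RT130F18_D_C09 ran from 2.33 to 3.42 over the N females. In the deposited values the test described below called 4 of these 5 clones less abundant in HI eggs. The share called so over all clones tested was 5.65%. 1RT156K02_C_F01 was not called (log2 difference -0.21, adjusted p = 0.0651 from limma). The test sets the difference against the SD within groups, so picking clones by a small SD favours calls. After MAD scaling none of the 5 was called, and the HI minus PM differences of 1RT151L18_D_F09 and tcad0007.b.07 became 0.02 and 0.05. After quantile normalization neither of these was called (adjusted p = 0.188 and 0.0898 from limma).

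The most variable clone was tcay0038.i.18, with an SD of 0.71. Its log2 signal was 4.82, 3.88, 4.24 and 3.01 in the 4 N females. It ran from 3.11 to 5.19 (median 4.79) in HI and from 2.85 to 5.27 (median 4.61) in PM eggs. Its low females were HI replicate 1 (3.11), PM replicate 1 (3.02), PM replicate 9 (2.85), PM replicate 4 (3.46) and N replicate 4 (3.01), and its groups overlapped over nearly their whole range. Next were 1RT146N19_B_G10 (SD 0.52), 1RT125G07_A_D04 (0.50), tcaa0002.h.19 (0.49) and 1RT146G12_C_D06 (0.49). For 1RT146N19_B_G10 and 1RT125G07_A_D04, PM replicates 1 and 9 were again the lowest PM females, at 2.85 and 2.52 for the former and 3.19 and 3.60 for the latter. tcaa0002.h.19 instead was lowest in PM replicates 2, 3 and 5 (4.89, 4.83 and 5.08), in which the 25 brightest clones were low.

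As a description, and in the deposited scaling, the means of the HI and PM groups lay on different sides of the N mean for most of the 25 brightest clones. Of these 25, 23 had a higher mean in HI than in N eggs (median log2 difference 0.19), and 18 a lower mean in PM than in N eggs (median -0.10). Of the other 125 clones, 74 had a lower mean in HI than in N eggs (median -0.07), and 70 a higher mean in PM than in N eggs (median 0.02). Over all 150 clones the medians were -0.01 for HI minus N and 0.01 for PM minus N, against -0.03 and -0.01 over all clones tested. tcaa0002.e.03 had a mean of 7.17 ± 0.21 (SD, n = 10) in HI, 6.91 ± 0.38 (SD, n = 4) in N and 6.84 ± 0.50 (SD, n = 14) in PM eggs.

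HI and PM eggs were then compared directly in the 24 females of these groups, with a limma moderated test on log2 signal, fitted on all 8350 clones and adjusted over them (adjusted p under 0.05). All 150 clones were tested, since the rule had asked for a value in each female. Among the 150 clones, 7 were more abundant in HI eggs (4.67%) and 23 were less abundant (15.3%), which became 49 and 0 after MAD scaling. Over all clones tested the same test called 2.24% higher and 5.65% lower in HI eggs. When the clones of the whole array were ordered by N signal, 0.240% of the 835 dimmest and 17.96% of the 835 brightest were called lower in HI eggs. Of the clones ranked next, down to rank 300, 27 were called lower and 2 higher. The share of 15.3% among the 150 clones thus lay near that of other bright clones. Without HI replicate 1, 2, 7 or 11 the 23 lower clones became 15, 14, 12 and 15. Over all 8350 clones the lower calls went in these fits from 472 to 244, 283, 245 and 301. The median HI minus PM difference was 0.04 over the 150 clones, with 80 of them positive, and 0.0004 over all clones. After MAD scaling it was 0.37 over the 150 clones, with 127 positive, and -0.01 over all clones.

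In the deposited values the direction changed with rank. All 25 of the brightest clones had a higher mean in HI than in PM eggs in the deposited values (median difference 0.29) and after MAD scaling, and 19 of them after quantile normalization or with the covariate described next. In the deposited values 2 of the 25 passed the test. In contrast, 4 of the last 25 were higher in HI eggs (median -0.21), a number that became 10 after quantile normalization, 13 after MAD scaling and 11 with the covariate. Of these last 25, 9 were called lower and 1 higher. The medians of the groups of 25 between them were 0.08, -0.04, 0.06 and -0.05. After quantile normalization the median of the 25 brightest was 0.05 and none of them passed the test, whereas after MAD scaling it was 0.79 and 21 of them were called higher. Both steps move the brightest clones according to the width of their array, so these values cannot decide which direction holds. The medians of the next groups of 25 after MAD scaling were 0.47, 0.29, 0.34, 0.24 and 0.02, so under that scaling none was negative.

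The distribution of log2 signal was on average narrower on HI than on PM arrays, with overlap. The calls changed with how array spread was treated. The interquartile range (IQR) of log2 signal was 1.46 ± 0.07 (SD, n = 10) in HI and 1.61 ± 0.10 (SD, n = 14) in PM eggs, and ran from 1.37 to 1.57 and from 1.44 to 1.77. With the array IQR as a covariate, none of the 150 clones was called in either direction. In that fit 29 of them, 20 of these higher in HI eggs, had an unadjusted p under 0.05 (limma), as had 634 of all 8350 clones. After adjustment 1 of 8350 clones was called (0.012%). Since the IQR differed between the groups, the covariate and the group term share variation, and the part of array width was not tested. With all arrays scaled to a common MAD, 49 of the 150 clones were called higher in HI eggs (1.86% of all clones) and none lower (2.24% of all clones). With quantile normalization 6 were called higher (1.22% of all clones) and 10 lower (2.02%). The 7 clones called higher in the deposited values kept their sign in all 3 alternatives. The 23 called lower kept it with quantile normalization and with the covariate, while 3 of them changed sign after MAD scaling. More lower than higher calls were thus found in the deposited values and after quantile normalization, and the reverse after MAD scaling. MAD scaling widens narrow arrays and so raises bright clones on them by construction.

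**Figure D4:**
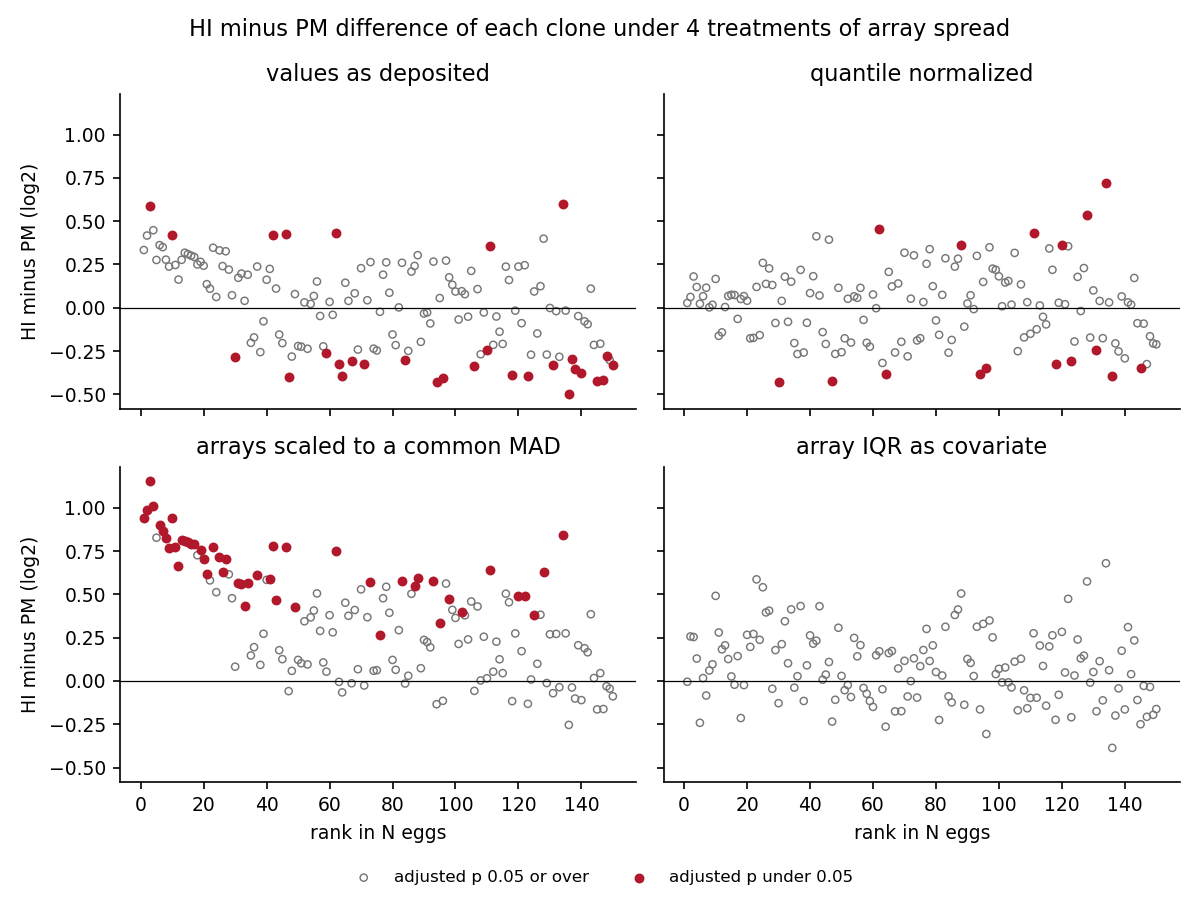
HI minus PM difference of each of the 150 clones (log2) against rank in N eggs, in the deposited values, after quantile normalization, after scaling to a common MAD and with the array IQR as a covariate, with filled points for clones with an adjusted p under 0.05 (limma). The calls numbered 7 higher and 23 lower in the deposited values, 6 and 10 after quantile normalization, 49 and 0 after MAD scaling, and 0 and 0 with the covariate.

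Among the 150 clones, 1RT71P07_B_H04 (rank 134), of the dimmer kind, had the largest increase in HI over PM eggs in the deposited values, though after MAD scaling tcav0001.m.05 had a larger one (1.15 against 0.84). Its log2 signal was 2.72, 3.22, 2.80 and 2.82 in the N females, from 2.65 to 3.46 (median 2.93) in HI and from 1.98 to 2.90 (median 2.37) in PM eggs. The highest PM females overlapped with the lowest HI females, and the N females lay in the HI range. It was 1.52 times as abundant in HI as in PM eggs (log2 difference 0.60, SE 0.11, adjusted p = 0.00418 from limma). The difference was 0.72 after quantile normalization and 0.84 after MAD scaling (adjusted p = 0.00108 and 0.000205 from limma), and 0.68 with the IQR covariate (adjusted p = 0.105 from limma).

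The third clone by N signal, tcav0001.m.05, was 1.501 times as abundant in HI as in PM eggs (log2 difference 0.59, SE 0.14, adjusted p = 0.0146 from limma). It ran from 6.03 to 7.28 (median 6.70) in HI and from 5.33 to 6.86 (median 6.02) in PM eggs, and the groups overlapped. Its N values were 5.82, 6.93, 6.00 and 6.85, so 2 N females were near the HI median and 2 near the PM median. The difference was 0.18 after quantile normalization (adjusted p = 0.518 from limma) and 0.25 with the IQR covariate (adjusted p = 0.782 from limma), but 1.15 after MAD scaling (adjusted p = 0.00534 from limma).

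3 further clones showed the same division of the N females. tcbk0034.n.16 was 3.09, 4.25, 3.25 and 3.81 in N eggs, and 1.35 times as abundant in HI as in PM eggs (adjusted p = 0.0144 from limma). tcay0034.f.12 was 3.11, 4.63, 3.46 and 4.03, with a ratio of 1.34 (adjusted p = 0.044 from limma), and its call was lost in 13 of the 24 fits that left out a single female. tcay0032.c.14 was 3.32, 4.55, 3.51 and 4.01, with a ratio of 1.34 (adjusted p = 0.00903 from limma). In all 4 clones N replicates 2 and 4 were above N replicates 1 and 3. The array IQR divided the N females in the same way, being 1.39 and 1.42 in replicates 2 and 4 and 1.75 and 1.604 in replicates 1 and 3. Its part in these values was not tested.

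The clone with the largest decrease in HI eggs in the deposited values was 1RT130F18_D_C09 (rank 136). It ran from 2.24 to 2.67 (median 2.52) in the 10 HI females and from 2.80 to 3.28 (median 2.97) in the 14 PM females, so that each HI female lay below each PM female. Over all clones tested, 3 of 8350 (0.0359%) had all HI females below all PM females, and none had all of them above. It was 1.41 times as abundant in PM as in HI eggs (log2 difference HI minus PM -0.50, SE 0.07, adjusted p = 0.000477 from limma). Its N values of 3.42, 2.68, 3.10 and 2.33 covered both ranges. After MAD scaling the difference was -0.25 (adjusted p = 0.0521 from limma).

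The next 4 clones by decrease in the deposited values had similar values. 1RT50G16_C_D08 ran from 2.62 to 3.68 in HI and from 3.02 to 3.82 in PM eggs, and was 1.34 times as abundant in PM eggs (adjusted p = 0.0126 from limma). tcac0001.d.07 ran from 2.20 to 2.98 and from 2.78 to 3.55, with a ratio of 1.34 (adjusted p = 0.0103 from limma). tcac0005.e.17 ran from 2.33 to 3.09 and from 2.50 to 3.59, with a ratio of 1.34 (adjusted p = 0.0165 from limma). 1RT109G15_A_D08 ran from 2.51 to 3.34 and from 3.05 to 3.75, with a ratio of 1.33 (adjusted p = 0.00976 from limma). The groups overlapped for all 4. Their N values showed the reverse division, with N replicates 1 and 3 above N replicates 2 and 4, as for 1RT50G16_C_D08 at 3.57 and 3.37 against 2.83 and 2.93. After MAD scaling the HI minus PM differences of these 4 clones ran from -0.16 to -0.11, and none was called. None was called with the IQR covariate either. After quantile normalization tcac0005.e.17 was not called (adjusted p = 0.0544 from limma), while the others were.

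For egg quality, the log2 signal of the same 24 females was regressed on their normal alevins (%), with the ovulation group as a term, and the slope was tested. None of the 8350 clones passed the adjusted threshold (0%), so none of the 150 did, and the lowest adjusted p over all clones was 0.399 (limma). At an unadjusted p under 0.05 there were 524 clones in all, of which 28 were among the 150 clones. Positive slopes at that level were found for 24 of the 150 clones (16%, against 3.29% of all clones) and negative slopes for 4 (2.67%, against 2.98%). These 24 included 13 of the 25 brightest clones. After quantile normalization the 150 clones had 9 positive and 10 negative slopes at that level, none of the positive ones among the 25 brightest. After MAD scaling 39 of the 40 slopes at that level were positive, and with the IQR covariate 15 of 16, of which 5 were among the 25 brightest clones. Over all 8350 clones, 525 slopes were at that level after quantile normalization, 517 after MAD scaling and 396 with the IQR covariate. Without HI replicate 1, PM replicate 12 or PM replicate 3, the 24 positive slopes became 13, 14 and 15. Over all clones, the slopes of either sign at that level became 757, 369 and 379 in these fits.

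The clones with the lowest p were not called but are given for their values. The fitted slope of 1RT165A10_C_A05 was 0.07 log2 units for each 10 points of normal alevins (SE 0.02, adjusted p = 0.433 from limma). It was 3.40 and 3.59 in the HI females of lowest quality, replicates 1 and 2, and 4.02 to 4.39 in the 5 HI females with 89.5% normal alevins or more. HI replicates 3, 4 and 5, with 28.5, 35.6 and 39.8% normal alevins, lay within the range of those 5, at 4.12, 4.03 and 4.27. In PM eggs it ran from 3.19 to 4.64 (median 3.94), and the 3 highest values were those of replicates 11, 12 and 13. PM replicate 14, with 93.8% normal alevins, was at 4.06, below PM replicate 7 (37.5%) at 4.19. The 4 N females, all of high quality, were at 3.74, 3.63, 3.41 and 3.69, below the HI and PM females of comparable quality. 1RT162D06_D_B03 had a slope of 0.06 (SE 0.02, adjusted p = 0.477 from limma), with N values of 3.18, 3.20, 2.80 and 3.14. The negative slopes of lowest p were those of tcac0002.j.20 (-0.04, adjusted p = 0.751 from limma) and tcay0026.l.17 (-0.03, adjusted p = 0.751 from limma).

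Slopes were also taken within each group, only in the deposited values, and the signs of these slopes were not counted over all clones. Within PM females, 21 of the 25 brightest clones had a positive slope (12 of them at an unadjusted p under 0.05), and 42 of the other 125. Within HI females, 18 of the 25 and 102 of the 125 were positive. The median slope within PM females was -0.005 over the 150 clones and -0.006 over all clones. Within HI females these medians were 0.015 and 0.004. No clone passed the adjusted threshold within either group. Of all clones, 15.4% within PM and 5.58% within HI had an unadjusted p under 0.05, against 32 (21.3%) and 29 (19.3%) of the 150 clones. The largest contrast among the first 10 clones was that of tcaa0002.h.19, with a slope of 0.12 in PM and -0.02 in HI females per 10 points. The difference between the 2 slopes was -0.14 (SE 0.04) with an adjusted p of 0.151 (limma). For tcaa0002.e.03 the slopes were 0.09 and -0.001, and the difference had an adjusted p of 0.263 (limma). No clone of the array passed the threshold for a difference between the slopes (0 of 8350, with 1235 at an unadjusted p under 0.05, 25 of them among the 150 clones). Of these 25, 21 had the higher slope in HI females (14% of the 150, against 10.7% of all clones) and 4 in PM females (2.67%, against 4.05%).

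**Figure D5:**
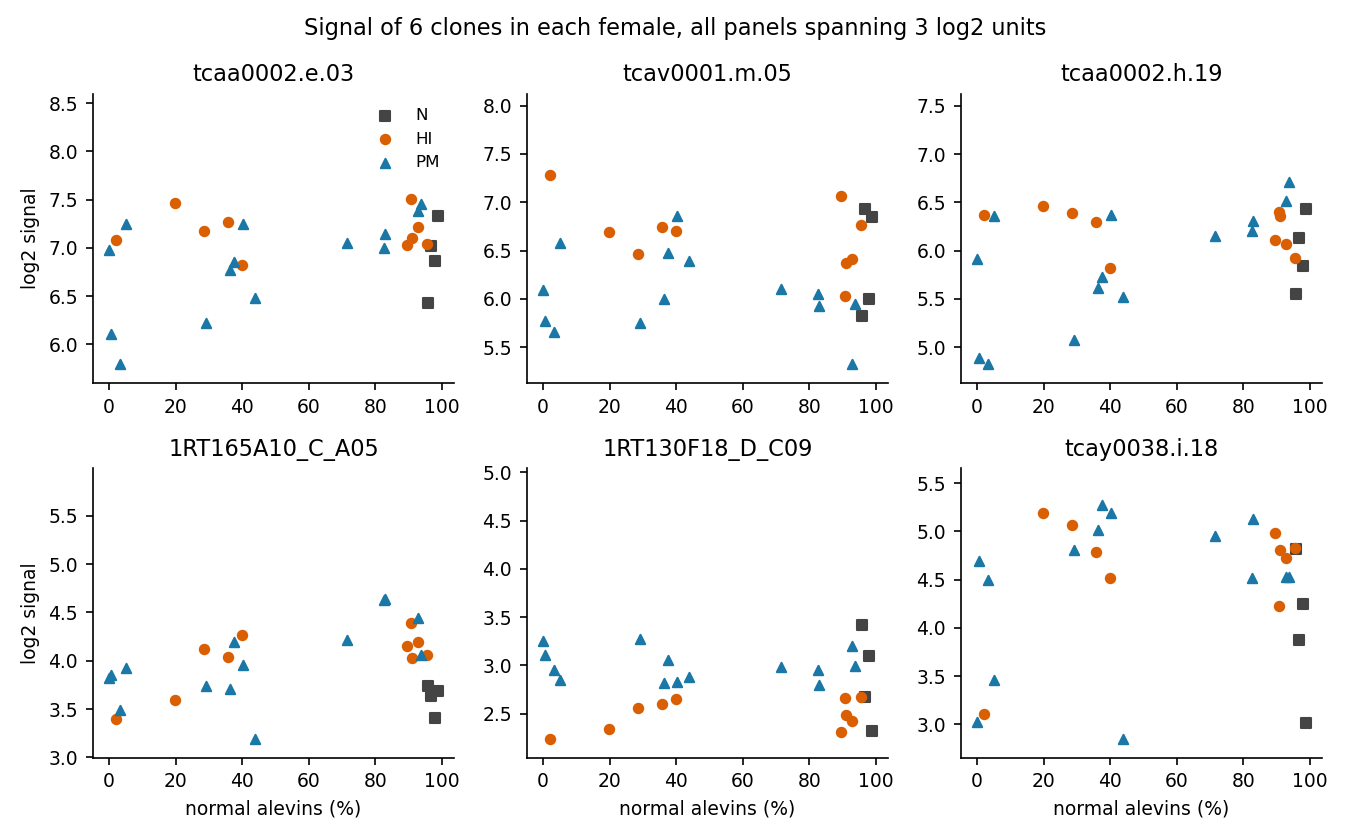
Log2 signal of 6 clones in each female against the percentage of normal alevins (N squares, HI circles, PM triangles). tcaa0002.h.19 ran from 4.83 to 6.71 in PM and from 5.82 to 6.46 in HI eggs, and the HI and PM females of 1RT130F18_D_C09 did not overlap. tcay0038.i.18 was low in HI replicate 1, in PM replicates 1, 4 and 9 and in N replicate 4.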

How the data were processed

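Each of 28 nylon cDNA arrays was hybridised with 33P-labelled cDNA from unfertilized eggs of 1 female. The deposited intensity values were made by the authors, who left out spots with little vector oligonucleotide signal, corrected each spot for its DNA and set it relative to the array median. The sources used here do not say how duplicate spots were combined. Of 9216 table rows, 193 were no clones and were left out. Values of 0 (6.59% of clone values) were treated as missing. On each array, 8146 to 8655 clones had a value above 0.

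Signals were tested as log2 values without pseudocount with limma 3.58.1 in R 4.3.3, for 8350 clones (a minimum of 20 values over all arrays and of 2 per group), with Benjamini-Hochberg adjustment over all of them. The tests used the 24 HI and PM arrays, since the N arrays ranked the clones. The number of arrays limits the precision. The scripts were checked on simulated data. HI to PM changes of 0.25 log2 units were recovered for 0.5% of the changed clones, and changes of 0.5 for 85%. Quality slopes of 0.05 per 10 points were recovered for 41%, and slopes of 0.1 for 94.5%. A clone that was not called can thus still hold a small change. Summaries and figures were made with pandas 2.3.3 and matplotlib.

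The clones and comparisons were chosen with earlier results of these data known, and the split at rank 25 after the values were seen. Named clones were the 10 brightest, up to 5 with the largest difference between HI and PM in each direction among those called, the 5 least and 5 most variable, the 2 with the lowest p of the quality slope in each direction, and those next to the lower edge. 1RT68A10_C_A05 was named after its values were seen. Gene lists and cell type markers set for this work could not be used without gene names. Alternatives were other normalizations, filters, variance models, covariates, array weights, a pseudocount of 0.1, eyed embryos as the quality measure, a replicate block, and the omission of single arrays.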

Additional observations from a re-analysis of the deposited data

Results flagged for a closer look

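Each named clone and the share of the 150 clones in total signal were checked for a female far from the others of the N and HI groups. This was done in 68 groups of values, of which chance alone would mark about 3.4, and 6 were marked. HI replicate 1 had a log2 signal of 3.11 for tcay0038.i.18, with the nearest HI female at 4.23. For 1RT146N19_B_G10, N replicate 4 was at 3.16 with the nearest N female at 3.81, and HI replicate 3 was at 4.77 with the nearest HI female at 4.00. N replicate 3 was at 2.80 for 1RT162D06_D_B03, with the nearest at 3.14. HI replicate 4 was at 3.46 for tcac0002.j.20, with the nearest at 3.26. HI replicate 10 was at 2.93 for tcbk0004.f.17, with the nearest at 2.58. The 6 values came from 5 clones and 6 different females.

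Rows outside the clone measurements also gave signal. The values above 0 of the 128 rows named for a vector had a median of 9.34 times the array median, which lies inside the range of the 150 clones. No clone differed between the HI and PM groups in its quality slope after adjustment.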

How the results depend on the processing

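The set of 150 clones was little affected by how it was ranked, with 144 to 150 clones kept under other rankings and 145 to 146 without each N female. The median share of total signal over clones valued on all arrays was 21.7% in N and 23.7% in HI eggs, and after MAD scaling it was 21.1% in N and 23.6% in HI eggs. Quantile normalization gave 19.96% in HI eggs. Without each N female the N median was 19.6 to 20.01%. The median SD between females was 0.25 after quantile normalization, 0.32 after MAD scaling and 0.28 to 0.31 without each female. Clones more abundant in HI than PM eggs numbered 7, but 0 with the IQR covariate, 12 with array weights and 49 after MAD scaling. Those less abundant numbered 23, but 15 in the fit of all 28 arrays, 0 with the IQR covariate, 39 with array weights, 0 after MAD scaling and 10 after quantile normalization. Over all 8350 clones these numbers were 187 and 472, and 528 and 951 with array weights. In the fit of all 28 arrays 347 of all clones were less abundant. Without each female the counts were 5 to 9 and 12 to 28 of the 150 clones. Over all clones they were 84 to 267 and 244 to 587. The lower count of the 150 clones dropped to 15, 14, 12 and 15 without HI replicates 1, 2, 7 and 11. The call of tcay0034.f.12 was lost in 13 of 24 such fits. The causes were not tested.

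The replicate numbers rank females by quality and do not pair them. The correlation of same-numbered HI and PM females ran from -0.24 to 0.19, and 1 of 10 was highest with its own number. With the number as a replicate block (20 arrays) 10 of the 150 clones were called higher and 19 lower in HI eggs. Over all 8350 clones, 167 were called higher and 316 lower. For the quality slope 0 were called in either direction, and the slope of tcac0002.j.20 turned to 0.022. Since the number follows quality, the block takes up much of the quality range, so this setting cannot decide about the slope. In the other settings of the quality slope, none of the 150 clones was called either (0 of 8350 in the deposited values).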
